A study of Mus musculus with 12 samples.

Results

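The genes described here make cholesterol, control how much of it is made, and move or store it inside the cell. They were chosen as a list of 29 genes, and a gene entered when the annotation of the array gave its symbol to a probe set, that is a group of short oligonucleotides that read 1 transcript. Of the 29 genes, 26 had a probe set, out of 18194 genes measured. Acat2, Soat1 and Soat2 had none under those symbols and were not analysed here. Of the 26, 18 encode enzymes of synthesis, 5 belong to the control of synthesis and uptake, and 3 move cholesterol inside cells.

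Total RNA of whole liver was hybridized to Affymetrix mouse genome arrays, 1 array per liver sample, with 3 arrays in each of 4 groups. The mice were Balb/c males, obtained at 8 weeks of age and acclimatized before the injections. Each was given intraperitoneal injections, and a lentivirus by the tail vein when these had run for 2 weeks, after which injections went on 3 times per week for 4 more weeks. The group shLFAR1+CCl4 received the virus Lenti-shLFAR1, which encodes a short hairpin RNA against the long noncoding RNA lnc-LFAR1, and 5% carbon tetrachloride (CCl4) in olive oil at 0.3 ml/kg. NC+CCl4 received the control virus Lenti-NC and the same CCl4, shLFAR1 received Lenti-shLFAR1 and oil, and NC received Lenti-NC and oil. The hairpin is driven by the H1 promoter, which is active in many cell types, in a vector that also carries GFP, and which liver cells took up the virus was not analysed here. No probe set is named for lnc-LFAR1, so its level is not given. Of 8 hepatocyte markers, 1 was called in NC+CCl4 against NC, Cyp2e1, which was lower, and their median log2 change was -0.03. Replicate 1 of NC+CCl4 stood apart in the log2 difference between 3′ and 5′ control probe sets, a sign of RNA quality, with 0.72 for Gapdh and 1.31 for beta-actin, against -0.21 to 0.03 and 0.70 to 1.07 in the other 11 arrays. In whole liver, fewer cells of a type and less RNA per cell cannot be told apart.

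Cells build cholesterol from acetyl-CoA through mevalonate, isoprenoid units, squalene and lanosterol. The transcription factor SREBP2, encoded by Srebf2, drives the genes of nearly all these steps: when sterol in the endoplasmic reticulum is low, the escort protein SCAP carries SREBP2 to the Golgi, where it is cut and released, and when sterol is high, the INSIG proteins hold SCAP back. The liver is a main site of this synthesis, and its sterol genes follow feeding and dietary cholesterol. SREBP2 binds a sterol regulatory element, often beside a CCAAT box bound by NF-Y and a GC box bound by Sp1.

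The start regions of 3 genes are shown, Hmgcs1 and Insig1 because they were the measured genes that held the sterol element core, and Mvk because it held several CCAAT boxes without that core. Sequences are from RefSeq on build GRCm38.p6, 5′ to 3′, and run over the 250 bases before the start of the gene, for Hmgcs1 at chr13:119690101-119690350, for Insig1 at chr5:28071162-28071411 and for Mvk at chr5:114444019-114444268, all on the plus strand. Capitals mark the letters CACNCCAC, taken as the core of the sterol regulatory element, and CCAAT, each on either strand.
Hmgcs1: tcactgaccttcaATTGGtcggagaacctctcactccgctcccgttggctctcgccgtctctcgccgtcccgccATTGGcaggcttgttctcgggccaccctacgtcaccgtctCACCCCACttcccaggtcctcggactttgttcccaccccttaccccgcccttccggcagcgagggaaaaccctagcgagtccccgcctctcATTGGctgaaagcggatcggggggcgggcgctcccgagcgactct
Insig1: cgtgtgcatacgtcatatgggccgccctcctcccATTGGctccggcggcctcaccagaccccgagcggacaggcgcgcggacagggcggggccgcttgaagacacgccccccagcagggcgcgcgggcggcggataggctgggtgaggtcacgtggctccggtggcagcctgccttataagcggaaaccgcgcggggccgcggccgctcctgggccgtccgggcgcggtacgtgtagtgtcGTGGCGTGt
Mvk: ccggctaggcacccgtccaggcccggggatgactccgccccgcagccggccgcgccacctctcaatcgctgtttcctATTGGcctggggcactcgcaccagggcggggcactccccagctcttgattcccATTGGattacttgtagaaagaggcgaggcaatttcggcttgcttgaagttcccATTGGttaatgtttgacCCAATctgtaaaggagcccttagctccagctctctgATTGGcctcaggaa
In these 250 bases Hmgcs1 held 1 match to CACNCCAC at position -136 from the start and 3 to CCAAT, Insig1 held 1 of each, with the sterol element core on the minus strand at -9, and Mvk held no match to CACNCCAC and 5 to CCAAT. Promoter windows of 300 bases, with 50 bases after the start, were at hand for 21 of the 26 genes. No motif overlapped another in the sequences shown. CCAAT was found in 20 of these 21 genes, all 15 synthesis genes with a window among them, in 74.1% of their windows and in 37.4% of the 32851 windows of all genes. GGGCGG, a GC box, was found in 19 genes, in 81.5% of windows against 35.7%. CACNCCAC was found only in Hmgcs1 and Insig1, in 7.41% of windows against 6.24%. A match is a string of letters, not a bound site.

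Values are on the log2 scale of the deposited table, so 1 unit is a factor of 2, and values of different genes are not on a common scale. Differences were tested with limma over all 18194 genes, with p-values adjusted by the Benjamini-Hochberg method, and called means an adjusted p under 0.05. Standard errors (SE) are those of the model.

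**Figure D1:**
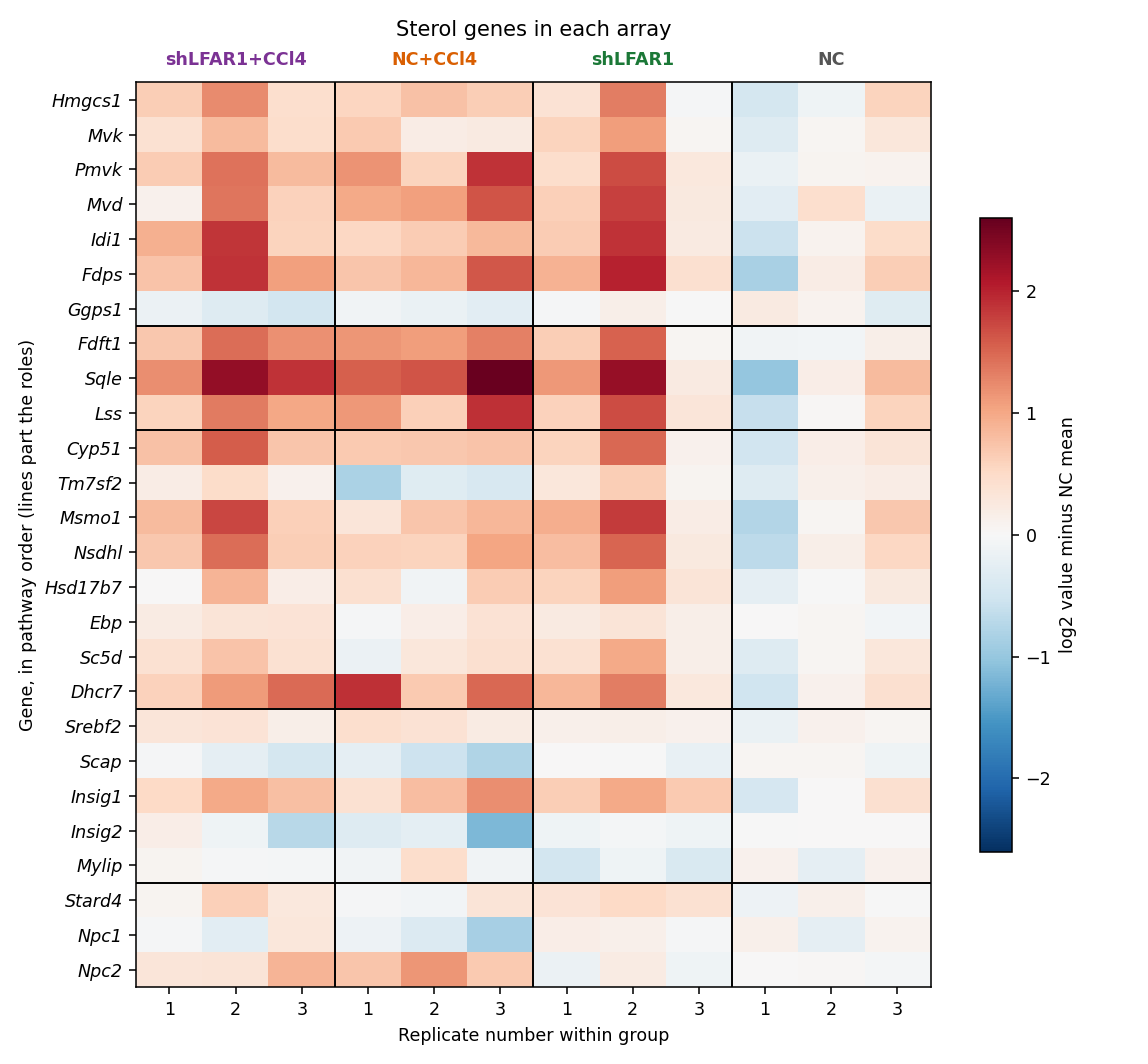
Log2 value of each of the 26 sterol genes minus its NC mean (colour), for every array, with genes in pathway order down the page and the 3 replicates of each group across it. Replicate 2 of shLFAR1 is the darkest column of its group for the 18 synthesis genes, and replicate 1 of NC is the palest or bluest for 16 of them.

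In oil-treated livers that received the shLFAR1 virus, all 18 synthesis genes had a higher mean than in NC livers by the probe set used, and none of them was called. The median log2 change over the 18 was 0.78, against 0.00 over all genes, where the middle 90% of genes lay between -0.23 and 0.22. The smallest was Ggps1 at 0.03 and the largest Sqle at 1.21. Over all 26 sterol genes, 22 had a higher mean in shLFAR1 and the median log2 change was 0.62. No gene of the array was called in either direction (0% higher, 0% lower, smallest adjusted p 0.785 for Gadd45g by limma). At an unadjusted p under 0.05, 16 of the 26 were higher and none lower, where 1.49% of all genes were higher and 1.28% lower. With the threshold named in the methods of the study, a fold change over 1.6 with an unadjusted p under 0.05, 11 sterol genes were higher, and these made up 11 of the 28 genes that were higher on the whole array (0.154%). The list was chosen with earlier results of these data known, so these counts describe it and are not a test of it. The arrays of both groups did not overlap for 5 sterol genes that were higher, Pmvk, Hsd17b7, Ebp, Insig1 and Stard4, and 1 that was lower, Insig2, where 6.01% and 4.76% of all genes did so.

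The first steps turn acetyl-CoA into isoprenoid units. All 7 measured genes of this stretch had a higher mean in shLFAR1 than in NC, with a median log2 change of 0.81. Mvk, mevalonate kinase, had log2 values of 7.57, 8.07 and 7.03 in shLFAR1, against 6.64, 7.03 and 7.28 in NC. Pmvk, the kinase of the next step, had 8.12, 9.35 and 7.93 in shLFAR1, against 7.48, 7.73 and 7.75 in NC. Every shLFAR1 array of Pmvk lay above every NC array, but its replicate 3 by less than the spread within NC. Mvd, the decarboxylase that yields isopentenyl diphosphate, had 6.46, 7.62 and 6.08 in shLFAR1, against 5.57, 6.27 and 5.67 in NC. Fdps, which joins the units to farnesyl diphosphate, had 11.03, 12.13 and 10.54 in shLFAR1, against 9.29, 10.31 and 10.77 in NC. In each of these genes replicate 2 was the highest shLFAR1 array, and for Mvk, Mvd and Fdps the lowest shLFAR1 array lay within the NC range. Hmgcs1, which makes the precursor of mevalonate, differed by 0.56 ± 0.32 and Idi1, the isomerase of the isoprenoid units, by 0.93 ± 0.40 (log2 change ± SE). Ggps1, which makes the geranylgeranyl units of protein prenylation and not sterol, differed by 0.03 ± 0.15. Its other probe sets had lower means in shLFAR1, with changes of -0.35 ± 0.17, -0.12 ± 0.13 and -0.09 ± 0.19.

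Squalene to lanosterol is the start of the sterol-specific branch. Fdft1, squalene synthase, had log2 values of 9.82, 10.72 and 9.24 in shLFAR1, against 9.09, 9.12 and 9.34 in NC. Sqle, squalene epoxidase, which adds oxygen to squalene, had 8.81, 9.95 and 7.93 in shLFAR1, against 6.69, 7.87 and 8.51 in NC. Lss, which closes the rings to lanosterol, had 8.21, 9.32 and 7.92 in shLFAR1, against 7.0, 7.65 and 8.19 in NC. For all 3 genes replicates 1 and 2 of shLFAR1 lay above every NC array, and replicate 3 lay inside the NC range. The log2 changes were 0.74 ± 0.29 for Fdft1, 1.21 ± 0.52 for Sqle and 0.87 ± 0.40 for Lss.

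The 8 enzymes from lanosterol to cholesterol all had a higher mean in shLFAR1, with a median log2 change of 0.70. Nsdhl, which removes methyl groups from the sterol ring, had log2 values of 10.16, 10.88 and 9.62 in shLFAR1, against 8.68, 9.51 and 9.90 in NC. Hsd17b7, which acts in the same demethylation, had 8.94, 9.44 and 8.69 in shLFAR1, against 8.11, 8.34 and 8.60 in NC. Dhcr7, the reductase of the last step, had 9.03, 9.50 and 8.45 in shLFAR1, against 7.64, 8.28 and 8.59 in NC. Of these, Hsd17b7 had no overlap between the groups, although its lowest shLFAR1 array lay close to its highest NC array. The remaining log2 changes were 0.72 ± 0.32 for Cyp51, the lanosterol demethylase, 0.98 ± 0.42 for the methylsterol oxidase Msmo1, 0.51 ± 0.22 for the desaturase Sc5d, 0.33 ± 0.18 for the sterol reductase Tm7sf2 and 0.24 ± 0.10 for the isomerase Ebp.

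The genes of control and transport lay on both sides of NC. Insig1, which holds SCAP back and is itself a target of SREBP2, had log2 values of 10.67, 11.02 and 10.72 in shLFAR1, against 9.60, 10.04 and 10.45 in NC. All 3 shLFAR1 arrays of Insig1 lay above NC, and its log2 change of 0.77 ± 0.23 had the smallest p of the 26 genes (0.00512 unadjusted, 1.71-fold by limma). Stard4, a cytosolic sterol carrier, had 9.54, 9.71 and 9.59 in shLFAR1, against 9.06, 9.33 and 9.19 in NC, a log2 change of 0.42 ± 0.15. These were the only members of both groups of genes with an unadjusted p under 0.05. Srebf2 itself differed by 0.13 ± 0.11, Scap by -0.06 ± 0.14 and Insig2, which acts like Insig1 but is not raised by SREBP2, by -0.09 ± 0.23. Mylip, the ubiquitin ligase that sends lipoprotein receptors to degradation, differed by -0.33 ± 0.17. Npc1 and Npc2, which pass cholesterol out of the lysosome, differed by 0.09 ± 0.19 and -0.01 ± 0.17.

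**Figure D2:**
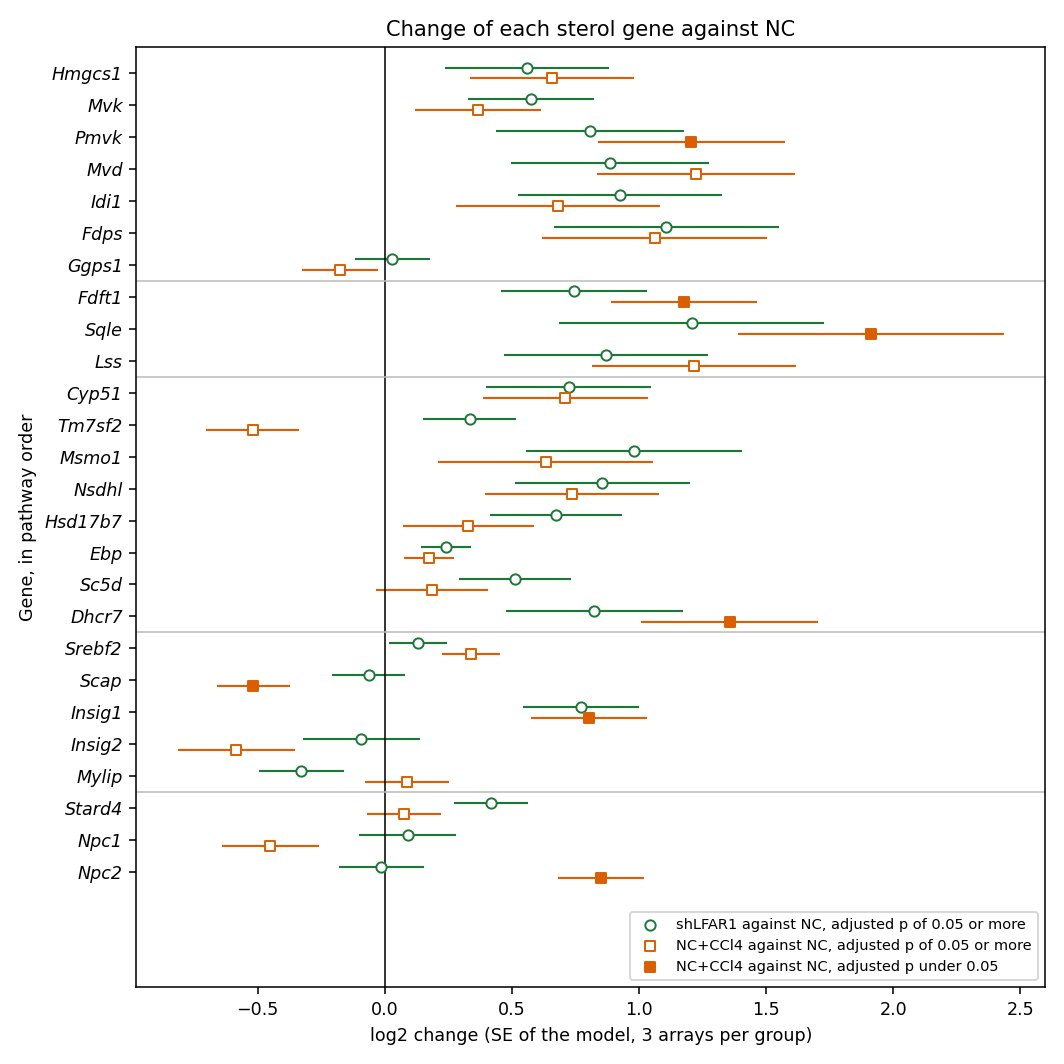
Log2 change of each sterol gene against NC (horizontal axis, bars are the SE of the model, 3 arrays per group) for shLFAR1 and for NC+CCl4, with filled points for adjusted p under 0.05. The 18 synthesis genes lie right of 0 in shLFAR1 with no filled point, while NC+CCl4 has 6 filled points right of 0 and 1 left of it.

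The higher mean of shLFAR1 rested on the single arrays to a large extent. The mean log2 value of the 18 synthesis genes, set to 0 in the mean of NC, was 0.59, 1.37 and 0.19 in shLFAR1, against -0.42, 0.09 and 0.32 in NC. Replicate 3 of shLFAR1 thus lay below replicate 3 of NC. Replicate 2 was the highest shLFAR1 array for 18 of 18 synthesis genes and replicate 3 the lowest for 17, while replicate 1 was the lowest NC array for 16 of 18. Over all genes, replicate 2 was the highest shLFAR1 array for 36.8% and replicate 1 the lowest NC array for 31.5%. Without replicate 2 of shLFAR1 the median over the 26 genes was 0.34, and without replicate 1 of NC it was 0.44. The count of 16 higher genes at an unadjusted p under 0.05 was 1 without replicate 2 of shLFAR1, 10 without its replicate 1, 1 without replicate 1 of NC and 7 without replicate 2 of NC. It was 13 to 19 when any other array was left out. With 1 array left out, between 21 and 24 of the 26 genes had a positive change, and no sterol gene was called in any of these fits.

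The synthesis genes varied between livers of one group more than most genes did, least so in NC+CCl4. Their median SD over 3 arrays was 0.42 in shLFAR1+CCl4, 0.28 in NC+CCl4, 0.70 in shLFAR1 and 0.41 in NC, against 0.14, 0.17, 0.11 and 0.13 for all genes in the same order of groups. The share of all genes with an SD below that median was 92.9% in shLFAR1+CCl4, 77.1% in NC+CCl4, 99.8% in shLFAR1 and 97.8% in NC. The 8 genes of control and transport had median SDs of 0.25, 0.30, 0.12 and 0.14, which in NC+CCl4 was above that of the synthesis genes.

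**Figure D3:**
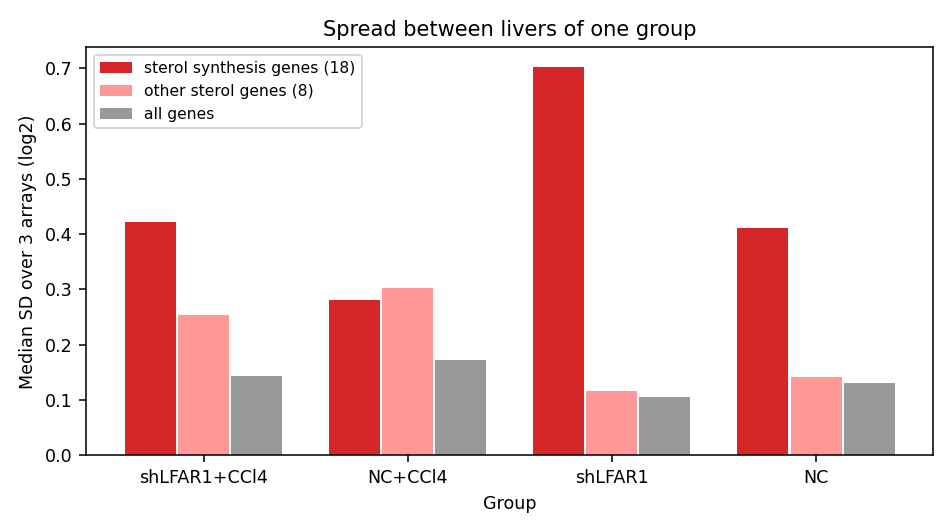
Median over genes of the SD between the 3 arrays of a group (vertical axis, log2), for the 18 synthesis genes, the 8 other sterol genes and all genes. The synthesis genes reach 0.70 in shLFAR1, where the other sterol genes are at 0.12 and all genes at 0.11.

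Genes of other pathways that follow feeding lay to one side as well. Of 13 genes of fatty acid synthesis, 12 had a higher mean in shLFAR1 than in NC, with a median log2 change of 0.64 and none called. Their mean over genes relative to NC was 0.49, 0.82 and 0.51 in shLFAR1, against -0.23, 0.06 and 0.17 in NC, with no overlap. All 8 measured fasting-induced genes had a lower mean in shLFAR1, with a median of -0.26 and none called, and their mean over genes was -0.75, -0.44 and -0.28, against -0.25, 0.28 and -0.03 in NC. Of 17 clock genes none was called, and their median was 0.09, with single genes between -0.39 and 1.41. The part of what these lists follow in the change of the sterol genes was not tested.

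**Figure D4:**
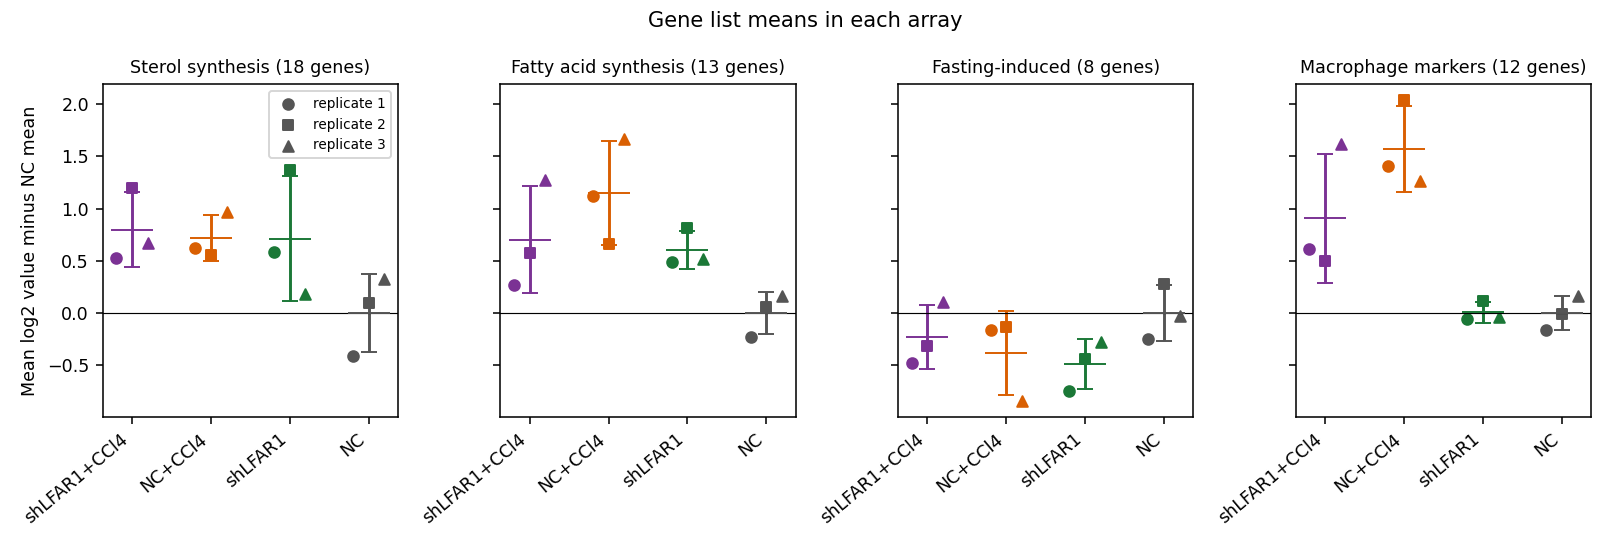
Average over the genes of 4 lists, relative to NC (vertical axis, log2), for each array by group, with a bar for the group mean and its SD and a symbol for each replicate number. The sterol synthesis points of shLFAR1 spread from 0.19 to 1.37, while its macrophage points stay near 0.

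With CCl4 under the control virus, 6 sterol genes rose against NC and 1 fell, of 26. Those that rose were Pmvk, Fdft1, Sqle, Dhcr7, Insig1 and Npc2, and Scap fell. Over all genes, 7.66% were called higher and 5.4% lower. The median log2 change was 0.65 over the 26 sterol genes and -0.05 over all genes. Arrays did not overlap for 12 sterol genes that were higher and 2 that were lower, where 13.8% and 15.8% of all genes did so. This comparison uses the same NC arrays as shLFAR1 against NC, so the low replicate 1 of NC enters both.

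Sqle showed the widest change, with log2 values of 9.23, 9.31 and 10.26 in NC+CCl4, against 6.69, 7.87 and 8.51 in NC (1.91 ± 0.52, 3.76-fold, adjusted p = 0.031 by limma). Its neighbour Fdft1 had 10.33, 10.27 and 10.49 in NC+CCl4, against 9.09, 9.12 and 9.34 in NC (1.18 ± 0.29, adjusted p = 0.0188). In both genes the groups lay apart, by more than the whole range of NC for Fdft1. Lss had 8.75, 8.24 and 9.50 in NC+CCl4, against 7.0, 7.65 and 8.19 in NC, and its change of 1.22 ± 0.40 did not pass (adjusted p = 0.067).

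Pmvk had 8.82, 8.23 and 9.54 in NC+CCl4, against 7.48, 7.73 and 7.75 in NC, just past the threshold (1.21 ± 0.37, adjusted p = 0.0495 by limma). When all probe sets were tested in place of 1 per gene, the same probe set of Pmvk was not called (adjusted p = 0.0538). Mvd had 6.81, 6.90 and 7.47 in NC+CCl4, against 5.57, 6.27 and 5.67 in NC, just outside it (1.22 ± 0.39, adjusted p = 0.0578). In that test a second probe set of Mvd was called higher (1.81 ± 0.42, adjusted p = 0.0165), and another one of Ggps1 lower (-0.57 ± 0.17, adjusted p = 0.0467). A further probe set of Hmgcs1, with a low mean log2 value of 2.92, was also called higher (1.17 ± 0.25, adjusted p = 0.0125 by limma). Fdps had 10.85, 10.98 and 11.73 in NC+CCl4, and its change of 1.06 ± 0.44 was not called. Mvk had 7.67, 7.17 and 7.22 in NC+CCl4, and all but its replicate 1 lay inside the NC range. Hmgcs1 and Idi1 had log2 changes of 0.66 ± 0.32 and 0.68 ± 0.40, and Ggps1 of -0.18 ± 0.15.

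Among the later enzymes Dhcr7 rose, with 10.07, 8.85 and 9.67 in NC+CCl4, against 7.64, 8.28 and 8.59 in NC (1.36 ± 0.35, adjusted p = 0.0236 by limma). Tm7sf2 went the other way, with 9.28, 9.79 and 9.69 in NC+CCl4, against 9.78, 10.24 and 10.30 in NC, and was not called (-0.52 ± 0.18, adjusted p = 0.0844). It was the single enzyme after lanosterol with a lower mean. Replicate 1 of NC+CCl4, the array with the high 3′ to 5′ difference, held the highest Dhcr7 and the lowest Tm7sf2 value of its group. Without it Dhcr7 was no longer called (1.09, adjusted p = 0.0804 by limma), nor was Pmvk (1.23, adjusted p = 0.0921, against 1.21 with all arrays). Both calls were also lost without replicate 3 of NC+CCl4 (adjusted p = 0.0708 and 0.175 by limma) and without replicate 1 or 2 of NC. Nsdhl had 9.97, 9.95 and 10.39 in NC+CCl4, and Hsd17b7 had 8.78, 8.25 and 9.01, neither called. The other 4, Cyp51, Msmo1, Ebp and Sc5d, had log2 changes of up to 0.71 with none called, although a second probe set of Sc5d gave 0.90 ± 0.25 (adjusted p = 0.0366).

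Control genes moved in both directions. Insig1 had 10.42, 10.84 and 11.25 in NC+CCl4, against 9.60, 10.04 and 10.45 in NC (0.80 ± 0.23, adjusted p = 0.0358 by limma), and its lowest NC+CCl4 array fell within the NC range. Scap had 9.79, 9.48 and 9.23 in NC+CCl4, against 10.08, 10.08 and 9.90 in NC (-0.52 ± 0.14, adjusted p = 0.0334), with no overlap. Insig2 had 11.25, 11.32 and 10.41 in NC+CCl4, against 11.57, 11.59 and 11.58 in NC, also with no overlap, but the change of -0.58 ± 0.23 was not called (adjusted p = 0.121), and replicate 3 stood below the other NC+CCl4 arrays. Srebf2 had 7.34, 7.29 and 7.12 in NC+CCl4, against 6.75, 7.03 and 6.96 in NC, a change of 0.34 ± 0.11 that was not called (adjusted p = 0.0715). Mylip differed by 0.09 ± 0.17.

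Npc2, which binds cholesterol inside the lysosome, had 10.44, 10.88 and 10.39 in NC+CCl4, against 9.73, 9.76 and 9.68 in NC. Its change had the smallest p of the 26 genes (0.85 ± 0.17, 1.8-fold, adjusted p = 0.00676 by limma). Npc1, the membrane protein that takes cholesterol over from it, had 8.03, 7.79 and 7.29 in NC+CCl4, against 8.28, 7.93 and 8.26 in NC, and was not called (-0.45 ± 0.19, adjusted p = 0.15). Stard4 had 9.16, 9.13 and 9.53 in NC+CCl4, which overlapped NC (0.07 ± 0.15). Markers of macrophages, cells rich in lysosomes, rose beside Npc2, 7 of 12 with a median log2 change of 1.14, and their mean over genes relative to NC was 1.41, 2.05 and 1.26 in NC+CCl4, against -0.16, -0.01 and 0.17 in NC. Genes of other lists were called as well, with 9 of 11 stellate cell and myofibroblast markers called higher (median 1.47) and 12 of 14 cell cycle genes (median 3.19). Also called higher were 2 of 3 neutrophil markers (median 2.66) and 2 of 6 genes of the lymphocyte list, Cd3g and Ptprc (median 0.17). None of 7 endothelial and none of 5 cholangiocyte markers was called. The part of these lists in the change of Npc2 and of the other sterol genes was not tested.

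Of these 7 calls, Npc2 alone held in all 21 alternative settings. Leaving out an array left 2 calls without replicate 1 of NC, and 1 call without replicate 2 of NC or without replicate 3 of NC+CCl4. Calls over all genes fell as well, from 2375 with all arrays to 1262, 1322 and 1653 in these fits. Without replicate 1 of NC the median over the 26 genes was 0.33.

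Related pathways outside the list were compared in the same way. Of all genes, 7.66% were called higher and 5.4% lower in NC+CCl4 against NC, and single calls in a short list are to be read beside these shares. Of 8 genes of SREBP processing, Rnf145, a sterol-regulated ubiquitin ligase, was called higher in NC+CCl4 (1.03 ± 0.20, adjusted p = 0.00626 by limma). Of 7 genes of LXR receptors and sterol efflux, Abcg1, an exporter to lipoproteins, rose (1.58 ± 0.33, adjusted p = 0.00896), and Abcg5 and Abcg8, which together pump sterol into bile, fell by 1.08 and 1.30 on the log2 scale. Of 10 genes of the non-sterol isoprenoid branch only Rabggtb, a subunit of a prenyl transferase, was called, and it fell (-0.60 ± 0.18, adjusted p = 0.0433). None of 11 genes of sterol transfer and hydrolysis was called. In fatty acid synthesis 6 of 13 rose and none fell, with a median log2 change of 0.84. The smallest p was that of Fasn, Scd1 and Acaca, which make and desaturate fatty acids. Of 8 fasting-induced genes, Pdk4 was called higher and Pck1 and Angptl4 lower, with a median log2 change of -0.70. Of 17 clock genes, Nr1d1 and Nr1d2 were called lower and none higher, with a median of -0.07. None of these lists had a call in shLFAR1 against NC, and the median log2 changes there were 0.05 for SREBP processing, -0.05 for LXR and efflux, 0.07 for the non-sterol branch and -0.01 for sterol transfer.

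With the shLFAR1 virus in both groups, no sterol gene was called with CCl4. The share of all genes called was 0.324% higher and 0.0824% lower. The median log2 change of the 26 genes was 0.08 in shLFAR1+CCl4 against shLFAR1, and -0.03 over all genes. At an unadjusted p under 0.05, Npc2 was higher and Ggps1 lower, which is 1 gene each way, where 5.62% and 5.15% of all genes were. The probe set used for Ggps1 changed by -0.35, and its other probe sets by 0.02, -0.12 and 0.07. Npc2 had log2 values of 10.03, 10.05 and 10.61 in shLFAR1+CCl4, against 9.58, 9.94 and 9.60 in shLFAR1 (0.52 ± 0.17, adjusted p = 0.25 by limma). All 3 arrays of shLFAR1+CCl4 lay above shLFAR1 for Npc2 and Mylip, and below it for Ggps1, where 8.41% and 11.7% of all genes did so. Sqle had 8.89, 9.97 and 9.57 in shLFAR1+CCl4, against 8.81, 9.95 and 7.93 in shLFAR1 (0.58 ± 0.52), and Fdft1 had 9.89, 10.63 and 10.38, against 9.82, 10.72 and 9.24 (0.37 ± 0.29). In both genes the groups overlapped. The sign of the median depended on single arrays: it was 0.33 without replicate 2 of shLFAR1, -0.14 without its replicate 3 and -0.12 without replicate 2 of shLFAR1+CCl4.

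**Figure D5:**
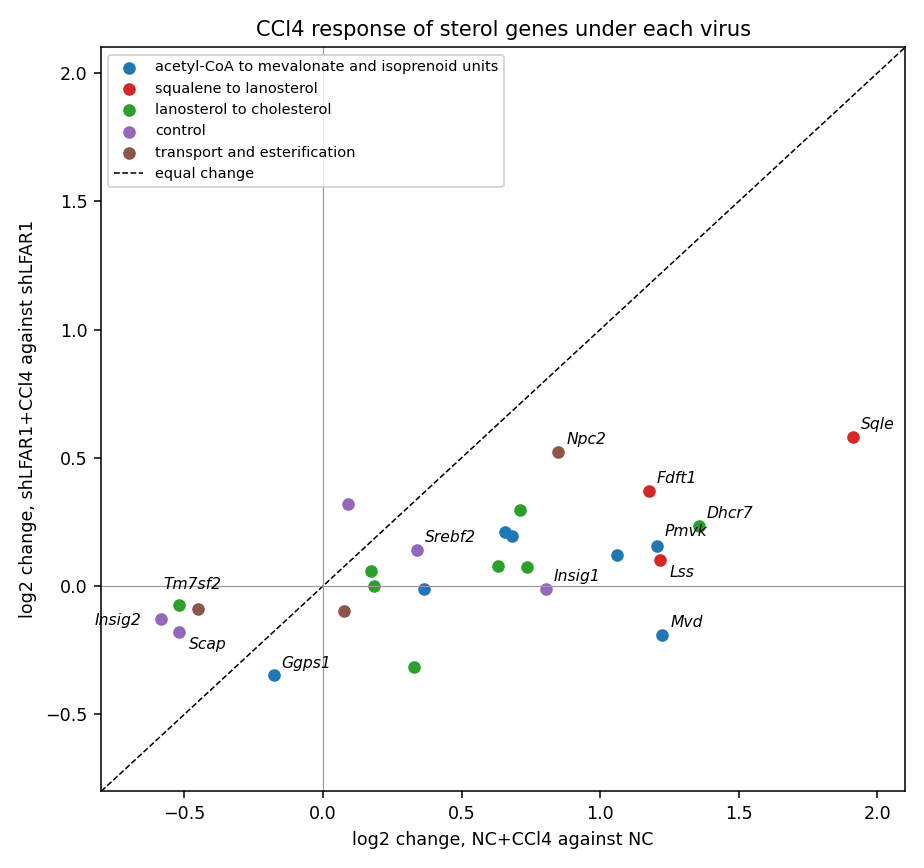
Log2 change with CCl4 under the control virus (horizontal axis, NC+CCl4 against NC) and under the shLFAR1 virus (vertical axis, shLFAR1+CCl4 against shLFAR1) for the 26 sterol genes, coloured by role, with a dashed line where both would be equal. Sqle lies at 1.91 on the horizontal and 0.58 on the vertical axis, and no point has a vertical value above 0.58.

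The interaction, that is the CCl4 change under the shLFAR1 virus minus the CCl4 change under the control virus, tested whether both CCl4 responses differed. No sterol gene was called, and 0.022% of all genes were called higher and 0% lower. The interaction was negative for 17 of the 18 synthesis genes, with Tm7sf2 the exception, and its median over the 26 genes was -0.43. At an unadjusted p under 0.05 the genes Mvd, Dhcr7 and Insig1 were lower, 3 of 26, and none was higher, where 4.94% and 4.57% of all genes were. The same 3 passed the threshold of the study's methods, as did 2.59% of all genes on that side. The widest were Mvd at -1.41 ± 0.55 and Sqle at -1.33 ± 0.74. Because the value subtracts shLFAR1 and adds NC, it contains the higher mean of shLFAR1 described above. It was -0.13 without replicate 2 of shLFAR1, -0.21 without replicate 1 of NC and -0.73 without replicate 3 of shLFAR1.

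Within CCl4-treated livers, none of the 26 sterol genes was called in shLFAR1+CCl4 against NC+CCl4, where 0.176% of all genes were higher and 0.115% lower, and the median log2 change was 0.12. At an unadjusted p under 0.05, 2 were higher, Tm7sf2 and Npc1, and none lower, where 6.43% and 7.74% of all genes were. Tm7sf2 had log2 values of 10.31, 10.58 and 10.22 in shLFAR1+CCl4, against 9.28, 9.79 and 9.69 in NC+CCl4. Its groups did not overlap, as for no other of the 26 genes, where 7.19% of all genes were higher without overlap and 5.11% lower. The Tm7sf2 change of 0.78 ± 0.18 had the smallest p of the 26 genes (adjusted p = 0.0909 by limma). Tm7sf2 was also the single sterol gene past the threshold of the study's methods, with 0.901% of all genes. Npc1 had 8.13, 7.88 and 8.46 in shLFAR1+CCl4, against 8.03, 7.79 and 7.29 in NC+CCl4 (0.45 ± 0.19), with overlap. The median over the 26 genes was -0.10 without replicate 2 of shLFAR1+CCl4. Tm7sf2 was called higher without replicate 2 of NC+CCl4 or without replicate 3 of shLFAR1+CCl4, and Npc2 was called lower without the same replicate 3. Calls over all genes rose as well, from 53 with all arrays to 546 and 1327 of 18194 in these fits. The SE of the 26 changes ran between 0.10 for Ebp and 0.52 for Sqle.

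Over all 4 groups the mean of the 18 synthesis genes relative to NC was 0.53, 1.20 and 0.67 in shLFAR1+CCl4 (0.80 ± 0.36, SD, n = 3), 0.63, 0.56 and 0.97 in NC+CCl4 (0.72 ± 0.22), 0.59, 1.37 and 0.19 in shLFAR1 (0.71 ± 0.60), and -0.42, 0.09 and 0.32 in NC (SD 0.38). The ranges of the first 3 groups overlapped, and replicate 3 of shLFAR1 was their one array inside the NC range. The principal component that parts CCl4 from oil places only replicate 3 of shLFAR1+CCl4 near the NC+CCl4 arrays, at 39.2, with replicates 1 and 2 at -6.80 and -9.66. For the synthesis genes these 3 arrays were ordered otherwise: replicate 2 was the highest for 15 of 18 genes and replicate 3 for 2.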

How the data were processed

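Log2 values of 45101 probe sets on 12 arrays were used as the authors deposited them. The sources used here name no summarization or normalization method, and the values carry no detection call, so low values may be background. Array means lay between 5.10 and 5.11. Probe sets with exactly 1 gene symbol (34958) were kept, and for each of 18194 genes the one with the highest average was used. Entrez IDs of the 26 sterol genes all matched RefSeq.

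Group means were fitted with limma 3.58.1 in R 4.3.3 (lmFit, eBayes with intensity trend, 8 residual degrees of freedom), two-sided, with Benjamini-Hochberg adjustment over all genes. The script was tested on simulated data. The labels call the replicates biological. The number of arrays limits the precision. Medians over genes are descriptions without a test. All members were named. Array values were given for up to 4 genes per role with the smallest p in shLFAR1 against NC or NC+CCl4 against NC, and up to 3 called genes were named from other lists. Members and lists were chosen with earlier results of these data known.

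Same-numbered arrays of shLFAR1+CCl4 and NC+CCl4 deviated together (correlations across genes of 0.126, 0.229 and 0.192), so their numbers may pair them, on the data alone. The values given come from the fit without pairing, and a fit with the number as a block was an alternative. Neither shLFAR1 with NC, NC+CCl4 with NC nor shLFAR1+CCl4 with shLFAR1 had 3 such correlations above 0.1. The remaining pairs of groups were not compared in this way. Promoter letters were counted in Python 3.11.15 on both strands.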

Additional observations from a re-analysis of the deposited data

How the results depend on the processing

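Results were recomputed under 21 alternatives: the variance model, mean over probe sets, a filter on low means, quantile normalization, array weights, only the groups compared, a replicate block, the threshold of the study's methods, and each of 12 arrays left out. No direction of a called gene was reversed. With the methods' threshold, 11 sterol genes were called in shLFAR1 against NC, 1 in shLFAR1+CCl4 against NC+CCl4 and 3 in the interaction, where the adjusted test called none; that threshold carries no adjustment. A linear model per gene without moderation left 1 call in NC+CCl4 against NC, and called 1438 genes in all. With 1 array left out, calls in that comparison numbered 1 to 9, with 1262 to 2923 over all genes. Its median log2 change was 0.33 to 0.85. Calls in shLFAR1+CCl4 against NC+CCl4 numbered 0 to 2, with 4 to 1327 called over all genes and a median of -0.10 to 0.18. The median of the interaction was -0.73 to -0.13. Calls were lost in 14 of 21 alternatives for Pmvk, 9 for Scap, 7 for Insig1, 5 each for Fdft1 and Dhcr7, 4 for Sqle and none for Npc2, while Mvd gained one in 8. With the replicate block, 8 sterol genes were called in NC+CCl4 against NC, among 2440 genes called in all, and 0 in each other comparison. The block within the CCl4 groups alone, chosen after seeing the data, also gave 0. Averaged over its probe sets, Fdft1 changed by 0.64 in NC+CCl4 against NC. Its probe sets with mean log2 values of 9.94 and 9.54 changed by 1.18 and 1.20. Those with lower means of 5.11 and 4.72 changed by -0.09 and 0.28. No array group was large enough for an outlier test, and the values give no signal over background.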
